A study of Mus musculus with 21 samples.

Results

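The Tsc22d family was followed through mouse gametes and preimplantation embryos, at the level of the gene and of the first exon with which its transcripts begin. Its 4 members, Tsc22d1, Tsc22d2, Tsc22d3 and Tsc22d4, were chosen by name, and the long-read transcripts whose exons overlap those of a member on the same strand were given to it. They hold 11 of the 22612 merged long-read transcripts and are 4 of the 10917 genes with such a transcript. The level of a gene is the summed TPM of its transcripts, a relative abundance scaled to transcript length and to the library, and the share of a first exon is its part of that sum. The family was chosen for these levels and shares, so they are given as a description, without a test.

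The study sequenced amplified cDNA of pooled sperm, oocytes and embryos with long reads and with short reads, to describe the transcripts of early development. There were 2 short-read libraries for each of 7 stages, 14 in all, and 1 long-read pool for each stage. The sperm libraries are labelled DBA/2J and came from the epididymis. The oocyte libraries are labelled C57/BL6J, from females of 3 to 5 weeks that had received 7.5 IU PMSG and, 48 h later, 7.5 IU hCG, and were taken 20 h after hCG. The embryos came from such females mated with DBA/2 males and were kept in KSOM medium until the 1-cell (24 to 26 h after hCG), 2-cell (46 to 48 h), 4-cell (54 to 58 h), 8-cell (68 to 70 h) or blastocyst stage (94 to 96 h). All oocytes and embryos therefore came from superovulated females, and embryos past the 1-cell stage were grown in culture. A library is a pool of many oocytes or embryos. The paper describes 2 collected batches for each stage, with short reads from the cDNA of each batch. The long-read pool was a mix of the same cDNA. Nothing says whether the 2 batches of a stage share animals.

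TSC22 domain proteins are small leucine zipper regulators that form homodimers and heterodimers with one another. Each gene can make long and short proteins that share the C-terminal TSC22 box and differ at the N-terminus, because transcription starts at different first exons. Tsc22d1 is known as a gene induced by TGF-beta, Tsc22d3 encodes the glucocorticoid-induced leucine zipper GILZ, and the long proteins of Tsc22d1, Tsc22d2 and Tsc22d4 are known partners of the pseudokinase Nrbp1 and the Wnk kinases, which control cell volume and ion transport.

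Tsc22d1 (ENSMUSG00000022010.19) lies on the plus strand of chromosome 14 at 76414961 to 76507765 (mm10, as all coordinates here). GENCODE vM21 lists 16 transcripts for it, with 12 different first exons. The long reads held 3 transcripts, which shared the second exon (76505249 to 76505297) and the last exon and differed in the first exon. The far upstream first exon (76487136 to 76487377, 242 bases) ended at a splice donor at which no annotated first exon ends, and its start was 623 bases from the nearest annotated start. The middle first exon (76488425 to 76488675, 251 bases) started 1289 bases further on and was that of Tsc22d1-203. The downstream first exon (76504513 to 76504841, 329 bases) lay 16088 bases beyond the middle one and was that of Tsc22d1-201. The first exon of Tsc22d1-202, which encodes the long protein, was in none of the 3 transcripts.

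**Figure D1:**
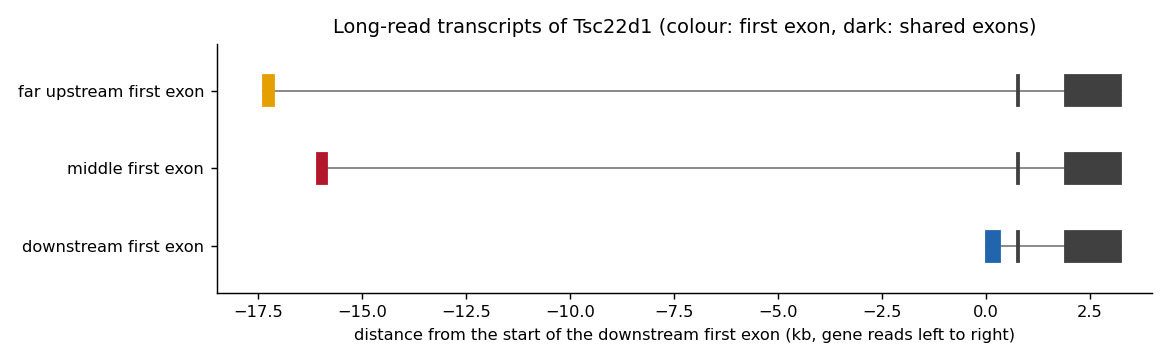
Exons of the 3 long-read transcripts of Tsc22d1, drawn to scale against the distance in kb from the start of the downstream first exon. The coloured first exons of the far upstream and middle transcripts lie 17377 and 16088 bases before that start, and all 3 transcripts run into the same 2 exons, in dark grey.

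The middle and downstream first exons carry different starts of the reading frame. The sequences below run from the annotated start codon to the end of the second exon (GRCm38, plus strand), with the coding bases of the first exon in capitals and the second exon in lower case. They are shown because the capitals are the only coding bases in which these 2 transcripts differ. Tsc22d1-203 has 17 coding bases in its first exon and 321 in all, and Tsc22d1-201 has 125 and 429.
Tsc22d1-203 (middle first exon): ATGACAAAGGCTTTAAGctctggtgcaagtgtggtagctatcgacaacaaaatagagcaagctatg
Tsc22d1-201 (downstream first exon): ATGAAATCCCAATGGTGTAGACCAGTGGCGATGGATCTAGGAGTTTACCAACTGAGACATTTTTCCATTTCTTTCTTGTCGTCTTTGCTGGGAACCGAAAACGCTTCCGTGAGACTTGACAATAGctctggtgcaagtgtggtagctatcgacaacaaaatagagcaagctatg
No annotated coding sequence belongs to the far upstream first exon.

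The windows before these 2 starts differed in base composition. RefSeq promoter entries (GRCm38.p6) matched 2 of the 4 members, Tsc22d1 and Tsc22d3, and for Tsc22d1 they gave the bases from 200 to 35 before the RefSeq starts that lay 11 bases from the middle and 3 bases from the downstream long-read start. Both windows are on the plus strand, chr14:76488236-76488401 for the middle and chr14:76504310-76504475 for the downstream first exon. They are printed to show 2 starts of 1 gene whose transcripts differed in their levels across stages, and capitals mark the motif matches found.
middle first exon: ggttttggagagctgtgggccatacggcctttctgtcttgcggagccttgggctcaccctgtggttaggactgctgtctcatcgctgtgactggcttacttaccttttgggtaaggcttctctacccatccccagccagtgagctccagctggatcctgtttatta
downstream first exon: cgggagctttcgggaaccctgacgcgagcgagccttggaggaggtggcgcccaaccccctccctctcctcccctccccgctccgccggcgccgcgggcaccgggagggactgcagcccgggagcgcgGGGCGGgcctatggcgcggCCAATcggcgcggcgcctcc
The middle window had a GC content of 54.2% and 3 CG dinucleotides. Of the 32843 promoter windows of the same length, 48.7% had as few. The downstream window had a GC content of 78.3% and 23 CG dinucleotides, and 4.03% of the windows had as many. Motifs were searched on both strands. CCAAT (in 25.7% of all windows) and GGGCGG (in 25.7%) had 1 match each in the downstream window and none in the middle one. TATAAA (7.3%), TAATTG (4.99%), CAGGTG (11.9%) and TAATCC (4.21%) had no match in either. None of these motifs overlaps another here.

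The stage labels were checked against marker genes. The 6 oocyte markers summed to between 4500 and 16437 TPM in oocyte, the 6 blastocyst markers to between 9466 and 35578 TPM in blastocyst, and neither exceeded these values elsewhere. Of 9 cumulus cell markers 1, Col1a2, had a merged transcript, with at most 0.0463 TPM in oocyte. Reads of the others had no transcript to be placed on, so this list cannot show whether cumulus cells were present. The 5 markers of 2-cell embryos summed to 21.8 TPM in 2-cell replicate 1 and 482 TPM in 2-cell replicate 2, against 19.9 to 21.2 TPM in 4-cell. The oocyte markers summed to 74.1 TPM in 2-cell replicate 1 and 711 TPM in replicate 2, against 89.5 to 116 TPM in 4-cell. By both lists 2-cell replicate 1 was thus near the level of the 4-cell libraries. TPM values, where printed, are therefore given for each 2-cell library. The 2-cell means, their ratios, the pattern comparisons and the limma values pool both libraries. The libraries of 2-cell and of sperm were the least alike, with r = 0.739 and 0.759 between replicates across genes, against 0.895 to 0.983 in the other stages.

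Tsc22d1 was highest in the oocyte and the 1-cell embryo. Its gene TPM was 1112 and 1374 in the oocyte libraries and 1941 and 1308 in the 1-cell libraries (replicates 1 and 2, in this order throughout). It was 122 and 152 in 2-cell, 52.5 and 49.8 in 4-cell, 34.0 and 41.9 in 8-cell, and 77.8 and 275 in blastocyst. The sperm libraries had 162 and 160. All oocyte and 1-cell libraries were above all others, and these 2 stages overlapped each other. The mean was 1625 ± 448 TPM in 1-cell and 137 ± 21.4 TPM in 2-cell (SD, n = 2), a ratio of 11.8. From the highest stage mean to the lowest, that of 8-cell, the ratio was 42.8. In the order of the means the neighbours 1-cell and oocyte overlapped, as did blastocyst and sperm, and the other neighbours were apart. Over the transcripts of the own stage, Tsc22d1 had 143 and 170 TPM in 4-cell and 146 and 181 TPM in 2-cell, so there these stages overlapped, and the step between them depends on the transcripts offered. TPM is a share of the RNA in a library, so that a loss of 1 transcript and a change in the amount of all others cannot be told apart.

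**Figure D2:**
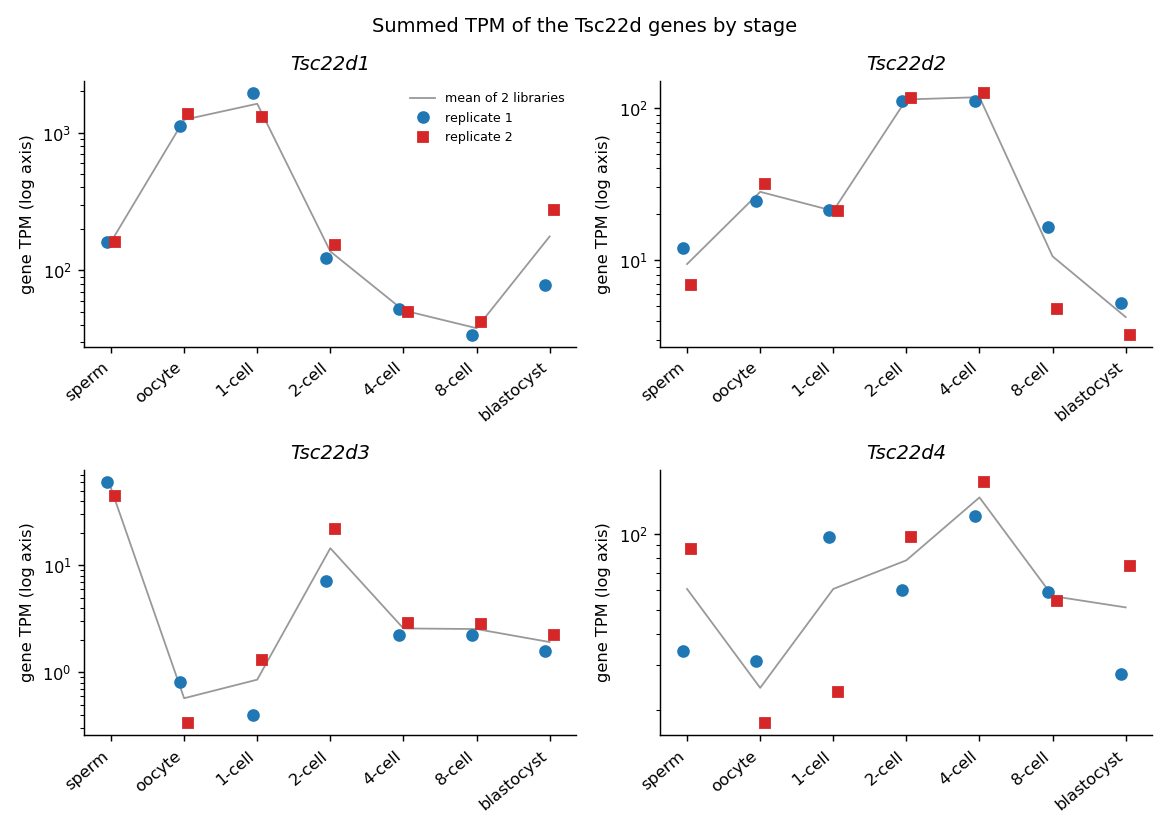
Summed TPM of each Tsc22d gene (log axis) against stage, with circles for replicate 1, squares for replicate 2 and a line through the means of 2 libraries. Tsc22d1 is highest in oocyte and 1-cell, Tsc22d2 in 2-cell and 4-cell, Tsc22d3 in sperm and Tsc22d4 in 4-cell.

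The oocyte and 1-cell level lay mainly in the upstream pair of first exons, and over the merged transcripts the middle one led in all 4 libraries. Its transcript had 699 and 1263 TPM in oocyte and 1572 and 1090 TPM in 1-cell. It had 9.51 and 4.39 TPM in 2-cell, and between 0 and 2.92 TPM in the libraries of 4-cell, 8-cell, blastocyst and sperm. The mean fell from 1331 ± 340 TPM in 1-cell to 6.95 ± 3.62 TPM in 2-cell (SD, n = 2), a ratio of 191. As a share of the gene, the middle first exon took 62.9% and 91.9% in oocyte, 81.0% and 83.3% in 1-cell, 7.80% and 2.88% in 2-cell, and at most 2.26% in any library of a later stage. The oocyte and 1-cell libraries were thus far above all others, and the oocyte libraries differed most from each other.

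The downstream first exon, which carries the longer of the 2 starts printed above, behaved differently. Its transcript had 23.8 and 38.1 TPM in oocyte, 61.8 and 26.4 in 1-cell, 75.4 and 109 in 2-cell, 25.6 and 22.1 in 4-cell, 13.1 and 24.6 in 8-cell, 51.1 and 253 in blastocyst, and 61.8 and 58.7 in sperm. Both 2-cell libraries were above both 1-cell libraries, with a ratio of the means of 2.08, while the middle first exon was lower in them. Its share was 2.14% and 2.77% in oocyte, 3.18% and 2.02% in 1-cell, 61.8% and 71.3% in 2-cell, and 65.7% and 91.9% in blastocyst. In blastocyst the higher gene level of replicate 2 (275 against 77.8 TPM) lay in this transcript.

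The far upstream first exon had 389 and 73.0 TPM in oocyte, 308 and 191 in 1-cell, and then 37.1 and 39.3 in 2-cell, 26.9 and 27.6 in 4-cell, 20.9 and 17.0 in 8-cell and 24.9 and 19.2 in blastocyst. In sperm it had 100 and 101 TPM, 61.7% and 63.3% of the gene. It took 51.2% and 55.4% in 4-cell, beside 48.8% and 44.3% for the downstream first exon. Over the transcripts of the own stage, however, it took 87.9% and 90.3% in 4-cell and the downstream one 12.1% and 9.66%. The 2 oocyte libraries differed more in it than in the gene as a whole, since the one with less of the far upstream first exon had more of the middle one.

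**Figure D3:**
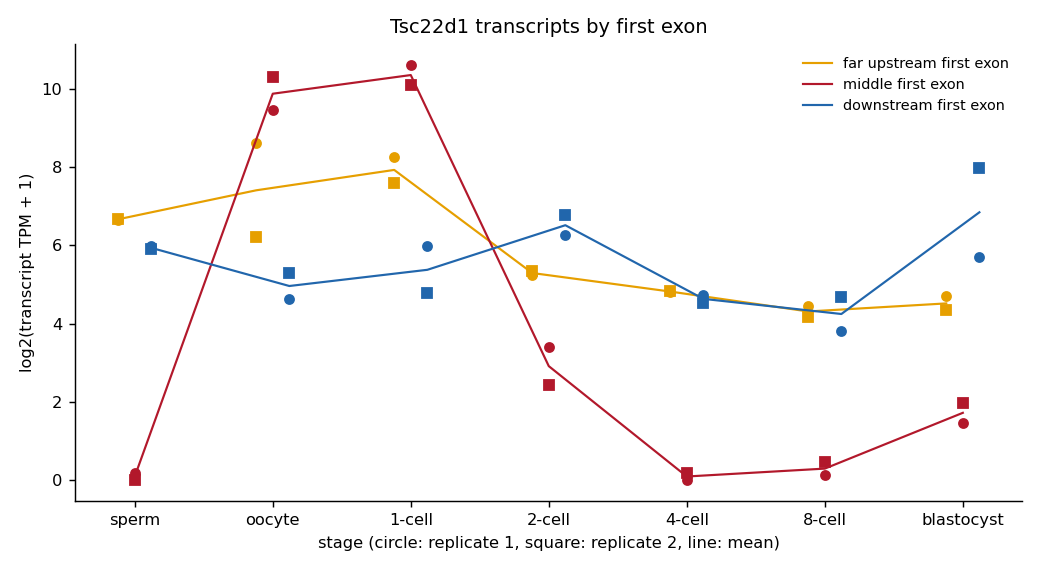
log2(TPM + 1) of the 3 Tsc22d1 transcripts against stage, with circles for replicate 1, squares for replicate 2 and lines through the means. The middle first exon lies above the others in oocyte and 1-cell and near 0 from 4-cell to 8-cell and in sperm, while the downstream first exon is above both others in 2-cell and blastocyst.

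The split between the upstream pair of first exons rested on little sequence and on the transcripts offered. Only 14.8% of the bases of the far upstream transcript, 15.2% of the middle and 19.1% of the downstream one were in no other merged transcript. Over the transcripts of the own stage alone, the oocyte share of the middle first exon was 28.2% and 78.5%, and that of the far upstream one 70.1% and 18.8%. Summed, the upstream pair had close shares in the 2 oocyte libraries, but not in those of 8-cell or blastocyst. It took 97.9% and 97.2% in oocyte, 96.8% and 98.0% in 1-cell, 38.2% and 28.7% in 2-cell, 51.2% and 55.7% in 4-cell, 61.6% and 41.4% in 8-cell, 34.3% and 8.05% in blastocyst, and 61.8% and 63.3% in sperm. The summed share also depends on the transcripts offered. Over those of the own stage, the pair took 87.9% and 90.3% in 4-cell. In sperm, 2-cell, 8-cell and blastocyst only the downstream first exon was offered, so the pair had no share there.

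The long reads of each pool, which span the transcript, were read separately. The oocyte pool held all 3 first exons. The 1-cell pool held 3 transcripts, all with the middle first exon, and the 2-cell pool held 2, both with the downstream one. The 4-cell pool held 1 transcript with the far upstream and 2 with the downstream first exon. The sperm, 8-cell and blastocyst pools each held 1 transcript, with the downstream first exon. In these 3 stages, in 2-cell and in 1-cell, where its TPM was 308 and 191, the short reads placed on the far upstream first exon therefore had no long-read transcript of their own stage. With 1 pool for each stage, a missing long-read transcript is not a measured absence.

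In a count over all genes, a gene was taken as switched between 2 stages where one first exon led in both libraries of one stage and another in both libraries of the other, among genes with at least 2 first exons and at least 5 TPM in all 4 libraries. Tsc22d1 was switched between 1-cell and 2-cell, as were 6.39% of 1299 eligible genes. It was also switched between sperm and oocyte (12% of 917), between 2-cell and 4-cell (4.73% of 1691), and between oocyte and blastocyst (9.19% of 1012). It was not switched from oocyte to 1-cell (1.5% of 1266), from 4-cell to 8-cell (5.77% of 1699) or from 8-cell to blastocyst (3.05% of 1542). The choice of Tsc22d1 used these shares, so nothing is read from its place in this count.

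Tsc22d2 (ENSMUSG00000027806.9, chromosome 3, 58414715 to 58466783, plus strand) had 1 merged transcript and so 1 first exon in every library. That transcript has the introns of Tsc22d2-203 and begins at 58417267, inside an annotated first exon that starts at 58414720 and ends at 58417613. Most of the annotated coding sequence of Tsc22d2-203, 1925 of 2235 bases, lies in that first exon, so the long-read transcript holds only part of it. Over the merged transcripts, Tsc22d2 was highest in the 2-cell and 4-cell embryo. It had 112 and 115 TPM in 2-cell and 110 and 125 TPM in 4-cell, which overlapped. It had 24.4 and 31.8 TPM in oocyte, 21.3 and 20.9 in 1-cell, 16.4 and 4.76 in 8-cell, 5.21 and 3.23 in blastocyst and 12.0 and 6.86 in sperm. The ratio of the means was 5.40 from 1-cell to 2-cell, and the mean of 8-cell was 0.0898 of that of 4-cell. The 8-cell libraries overlapped those of sperm and differed from each other more, on the log2 scale, than the libraries of any other stage. The spliced transcript was in the 4-cell long-read pool. The oocyte and 2-cell pools held 1 unspliced piece each, from the 3' end, and the other 4 pools held none, so the level at those stages rests on short reads placed on a 4-cell transcript. Over the transcripts of the own stage, Tsc22d2 had 149 and 104 TPM in oocyte, 101 and 250 in 2-cell and 95.3 and 110 in 4-cell. There the 3 stages overlapped, and the lower oocyte level was not seen.

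Tsc22d3 (ENSMUSG00000031431.13, chromosome X, 140539528 to 140600659, minus strand), the gene of GILZ, had 2 merged transcripts. The downstream first exon (140542846 to 140543185) is that of Tsc22d3-201. The upstream first exon (140599400 to 140599485) ends at a donor at which no annotated first exon ends, and its start is 1174 bases from the nearest annotated one, that of Tsc22d3-203. The coding start of Tsc22d3-201 is printed as for Tsc22d1 (GRCm38, minus strand, first-exon coding bases in capitals, second exon in lower case), to set it beside the downstream start of its paralog, which has 125 coding bases in its first exon against 122 here.
Tsc22d3-201 (downstream first exon): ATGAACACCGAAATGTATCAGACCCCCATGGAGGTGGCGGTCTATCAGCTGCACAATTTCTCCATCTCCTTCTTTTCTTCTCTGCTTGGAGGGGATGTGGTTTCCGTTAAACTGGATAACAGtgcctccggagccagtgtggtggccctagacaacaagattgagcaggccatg

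Tsc22d3 was low in oocytes and embryos. Its gene TPM was 0.814 and 0.334 in oocyte, 0.401 and 1.31 in 1-cell, 7.20 and 21.7 in 2-cell, 2.24 and 2.91 in 4-cell, 2.24 and 2.84 in 8-cell and 1.59 and 2.25 in blastocyst. Both 2-cell libraries were above all other embryo and oocyte libraries, with a mean 16.9 times that of 1-cell. The sperm libraries, with 60.3 and 44.7 TPM, were above all others.

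The 2 first exons of Tsc22d3 differed in their values across stages. The upstream one was listed at 0 in all 4 oocyte and 1-cell libraries. It then had 7.20 and 20.4 TPM in 2-cell, 1.22 and 1.15 in 4-cell, 1.75 and 2.84 in 8-cell and 1.01 and 2.25 in blastocyst. The downstream one had 0.814 and 0.334 TPM in oocyte, 0.401 and 1.31 in 1-cell, and between 0 and 1.76 TPM in every later library. In 4-cell both were present, and the libraries did not agree on which led. The 2-cell level was that of the upstream first exon, with 100% and 93.6% of the gene. In sperm the upstream one had 14.9 and 26.8 TPM and the downstream one 45.4 and 17.9 TPM, and the libraries did not agree on which led. Tsc22d3 long reads were in the sperm pool only, with both first exons, so both transcripts were drawn from sperm RNA.

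The sperm libraries held transcripts that mark other cells. Of 8 markers of epididymis and blood cells, 7 had a merged transcript, and these summed to between 6422 and 10196 TPM in the sperm libraries. The red cell gene Hba-a1, which shares reads with a near-identical copy, had 1803 and 4384 TPM, the macrophage gene Lyz2 6151 and 1519 TPM, and the epididymal gene Crisp1 2006 and 335 TPM in sperm. Lcn5 had no merged transcript. The 5 sperm markers summed to between 13396 and 13541 TPM in the same libraries, and Prm1 had 1842 and 6156 TPM. The part of these cells in the sperm values of the Tsc22d genes was not tested. In 2-cell the 7 markers summed to 25.5 TPM in replicate 1 and 379 TPM in replicate 2. Hba-a1 made up most of this in replicate 1 (18.6 TPM) and nearly all of it in replicate 2 (368 TPM). Of the 2 libraries, replicate 2 also had more Tsc22d3. Lyz2 had 2.28 and 6.90 TPM and the leukocyte gene Ptprc 0 and 0.0278 TPM in these libraries. In 4-cell the 7 markers summed to between 103 and 146 TPM. The part of this in the 2-cell level of Tsc22d3 was not tested.

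Tsc22d4 (ENSMUSG00000029723.16, chromosome 5, 137745730 to 137768450, plus strand) had 5 merged transcripts in 3 loci that no long read joined. They were, from upstream to downstream, an unspliced piece of the annotated first exon (137745959 to 137746328), a first exon at 137747398 to 137747859 whose introns are contained in Tsc22d4-202, a short first exon of 31 bases (137750851 to 137750881) at an unannotated donor, the first exon of Tsc22d4-201 (137761686 to 137761987), and that of Tsc22d4-208 (137767650 to 137767878). The first exon at 137747398 ends at a donor at which no annotated first exon ends, and starts 1402 bases from the nearest annotated start. Its donor is that of an internal exon of Tsc22d4-202. A transcript cut short at the 5' end and a true start there cannot be told apart. Pieces of 1 mRNA may be counted more than once in the summed TPM, and only 3.36% of the bases of the transcript with the short first exon are its own.

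The level of Tsc22d4 was highest in 4-cell. Its gene TPM was 31.2 and 17.6 in oocyte, 97.3 and 23.6 in 1-cell, 59.9 and 97.2 in 2-cell, 118 and 161 in 4-cell, 58.9 and 54.2 in 8-cell, 27.6 and 74.4 in blastocyst, and 34.1 and 86.7 in sperm. Only 4-cell was apart from the next stage in the order, and all other neighbours overlapped. The mean of 4-cell was 5.73 times that of oocyte. Over the transcripts of the own stage 4-cell (75.2 and 117 TPM) and 2-cell (40.7 and 89.3 TPM) overlapped. The 1-cell libraries differed most, and there the difference lay in the unspliced piece (83.4 and 19.8 TPM).

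In oocyte and 1-cell nearly all of the Tsc22d4 sum was the unspliced piece of the annotated first exon, with 89.7% and 93.8% in oocyte and 85.7% and 83.8% in 1-cell. The spliced transcripts were low there and also present in sperm. The transcript with the first exon of Tsc22d4-208 had 2.63 and 0.605 TPM in oocyte, 1.29 and 1.01 in 1-cell, 6.72 and 56.0 in 2-cell, 25.5 and 59.9 in 4-cell, 5.77 and 2.72 in 8-cell and 1.03 and 0.798 in blastocyst. It was above the oocyte and 1-cell values in both 2-cell libraries, and the mean of 4-cell was 37.1 times that of 1-cell. The transcript with the short first exon had 0.586 and 0.028 TPM in oocyte, 6.14 and 0.231 in 1-cell, 6.35 and 25.0 in 2-cell, 32.5 and 53.2 in 4-cell, 22.8 and 17.6 in 8-cell and 12.3 and 20.3 in blastocyst. The first exon at 137747398 had 0 and 0.461 TPM in oocyte, 6.26 and 2.57 in 1-cell, 22.2 and 8.66 in 2-cell, 34.1 and 27.5 in 4-cell, 8.37 and 13.5 in 8-cell and 5.60 and 25.8 in blastocyst. In sperm it had 5.49 and 32.8 TPM and the short first exon 0.275 and 11.5 TPM. For the short first exon, 1-cell replicate 1 and 2-cell replicate 1 were close. The first exon of Tsc22d4-201 had 17.1 and 3.69 TPM in sperm and at most 1.62 TPM elsewhere. By the count of switches among spliced first exons Tsc22d4 changed its leading one from oocyte to 1-cell only (1.5% of eligible genes), where its spliced transcripts were low. In 1-cell the leading one was that at 137747398, which is not shown to be a true start.

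The long-read pools of Tsc22d4 held the unspliced piece alone in oocyte, 1-cell and blastocyst. The 2-cell and 4-cell pools each held the first exon at 137747398 and that of Tsc22d4-208, the 8-cell pool the short one, and the sperm pool that of Tsc22d4-201. For blastocyst, the short reads placed on spliced Tsc22d4 transcripts thus had no long-read transcript of that stage, and over the own-stage transcripts the leading spliced first exon, the short one, had no share in oocyte or blastocyst.

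**Figure D4:**
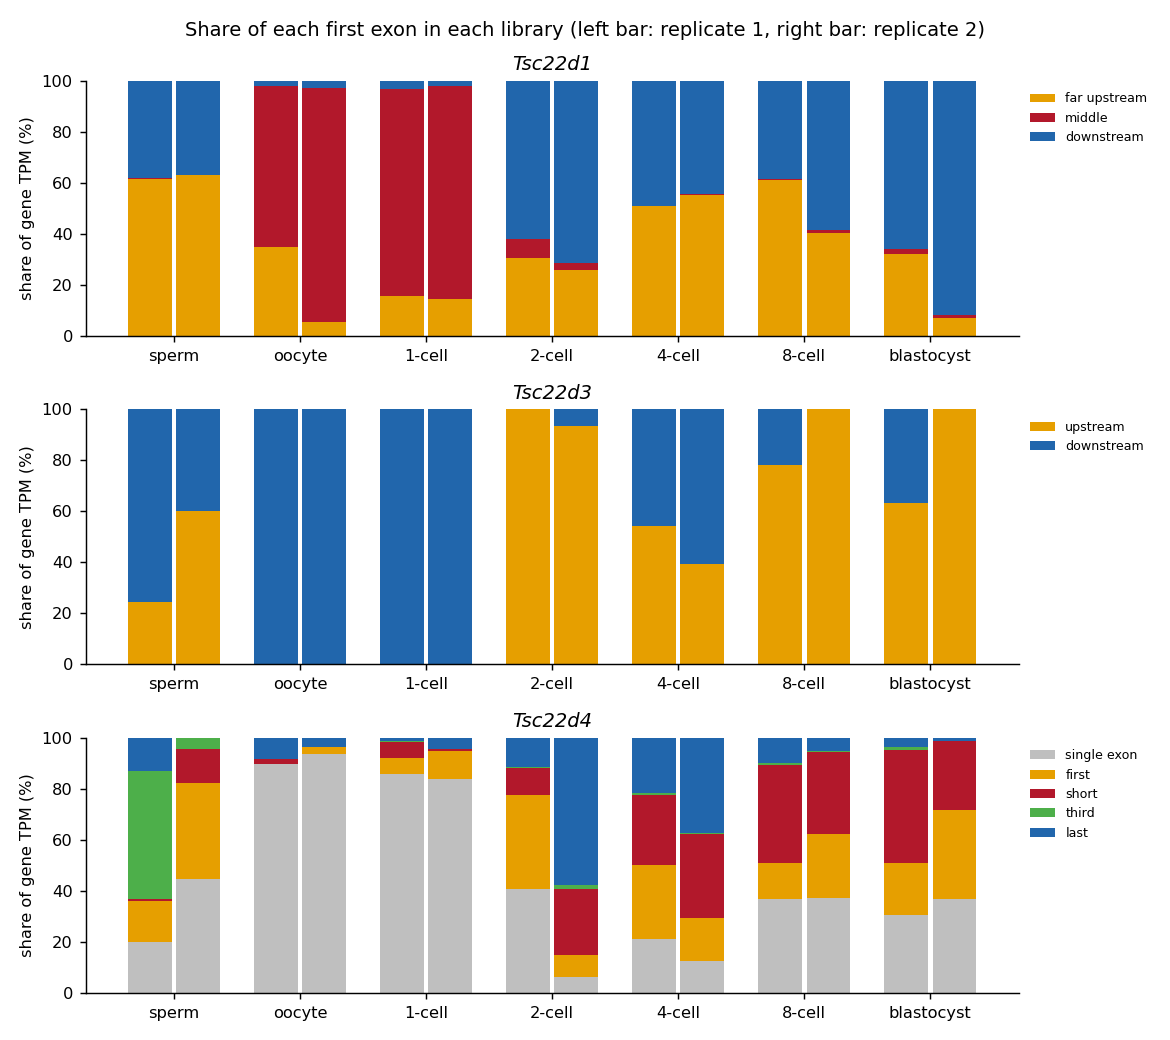
Share of each first exon in the summed TPM of Tsc22d1, Tsc22d3 and Tsc22d4 (%), stacked, with 2 bars for each stage (replicate 1 left, replicate 2 right) and the unspliced Tsc22d4 piece in grey. The middle first exon of Tsc22d1 takes 62.9% to 91.9% in oocyte and 1-cell and at most 7.80% later, and the upstream first exon of Tsc22d3 is at 0% in oocyte and 1-cell.

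The genes with the most similar pattern were sought among 9603 genes, by Pearson's r of log2(TPM + 1) over the 7 stage means. The points come from the same libraries as the members, so r is a description. For Tsc22d1 they were Tdp1 (r = 0.993), Laptm4b (0.990) and Hsd3b7 (0.988), of which Laptm4b had a mean of 2741 TPM in oocyte and 18.4 TPM in 8-cell. For Tsc22d2 they were Usp29 (0.975), Rbm12b2 (0.972) and Syt11 (0.968). For Tsc22d3 they were Abhd8 (0.994), Gnmt (0.991) and Zc3hav1 (0.990), which share its sperm peak. For Tsc22d4 they were Klhl12 (0.985), Pafah1b2 (0.969) and Nrbp1 (0.963).

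Nrbp1, a partner of the long Tsc22d proteins, had 5.64 and 29.8 TPM in oocyte, 41.9 and 27.0 in 1-cell, 136 and 68.5 in 2-cell, 159 and 117 in 4-cell, 44.9 and 80.9 in 8-cell and 47.5 and 43.4 in blastocyst. Both 2-cell and both 4-cell libraries were above those of oocyte and 1-cell. From 1-cell to 2-cell its log2 difference was 1.49 (SE 0.79), and limma gave an adjusted p of 0.166. Wnk1, the kinase of the same pathway, had a log2 difference of 1.44 (SE 0.68) there, with an adjusted p of 0.118 in limma.

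The genes of 3 lists around the family were tested from stage to stage with limma on log2(TPM + 1), over all 10000 genes that passed the filter. They hold the NRBP-WNK volume pathway (10 of 20 genes tested), the glucocorticoid receptor pathway (12 of 20) and the TGF-beta pathway (11 of 22). From 1-cell to 2-cell, 7 of these genes rose and 0 fell, while 26.1% of all genes tested rose and 6.2% fell. In the NRBP-WNK list 3 of 10 rose, with a median log2 difference of 1.33 over the list against 0.72 over all genes. In the glucocorticoid list 3 of 12 rose (median 0.61), and in the TGF-beta list 1 of 11 (median -0.22). These shares were not compared with that of all genes by a test.

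In the NRBP-WNK list the 3 were Cul3, the scaffold of the ubiquitin ligase that degrades Wnk kinases (log2 difference 3.94, SE 0.84, adjusted p = 0.00326), Cab39, the scaffold that activates the kinases Stk39 and Oxsr1 (3.28), and the sodium, potassium and chloride transporter Slc12a2 (2.61). Cul3 had 2.84 and 1.60 TPM in 1-cell and 25.0 and 88.8 TPM in 2-cell, without overlap. Cab39 had 6.98 and 18.3 TPM in 1-cell and 130 and 111 TPM in 2-cell. Slc12a2 had 2.79 and 1.36 TPM in 1-cell and 10.1 and 29.1 TPM in 2-cell. In the glucocorticoid list they were Klf9, a transcription factor and known target of the receptor (6.69, SE 0.78, adjusted p = 0.000101), the co-chaperone Fkbp4 (5.05) and the kinase Sgk1 (1.82). Klf9 had 0.934 and 0.332 TPM in 1-cell and 285 and 94.9 TPM in 2-cell. Fkbp4 had 4.94 and 9.45 TPM in 1-cell and 1146 and 58.1 TPM in 2-cell, so its 2-cell libraries differed widely. The gene of the receptor itself, Nr3c1, had no merged transcript. In the TGF-beta list it was Smad7, the inhibitor of the receptors (5.64, SE 0.67, adjusted p = 0.000118), with 0.332 and 0.128 TPM in 1-cell and 39.6 and 91.1 TPM in 2-cell. The receptor Tgfbr1 had 2.00 and 40.1 TPM in 2-cell and a log2 difference of 1.57 (SE 1.01, adjusted p = 0.254, limma). Quantile normalization moved the median of all genes from 0.72 to -0.12 and gave 6 list genes that rose and 2 that fell. Cul3, Cab39, Klf9, Fkbp4 and Smad7 rose under all 19 alternatives, Slc12a2 under 14 and Sgk1 under 8. Without 2-cell replicate 1 more list genes were called, not all of them as rises, and more genes were called over all. Slc12a2 was not called without 1-cell replicate 2 or 2-cell replicate 2, and Sgk1 was not called without either 1-cell, 4-cell or 8-cell library or 2-cell replicate 2.

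The other steps gave few calls with the settings reported here. With weights by stage, the count from 4-cell to 8-cell was 17 of 33 tested, beside 3921 of 10000 over all genes. From 2-cell to 4-cell 1 list gene, Sgk1, rose (3.05, SE 0.64, adjusted p = 0.029 in limma), from 6.81 and 9.12 to 98.5 and 53.7 TPM. Of all genes tested 1.58% rose and 1.82% fell there. Sgk1 was not called without either 4-cell or either 8-cell library. Without either 2-cell or either blastocyst library more list genes were called, and more genes over all. With a 2-cell library left out, the list calls went in both directions. From 8-cell to blastocyst Wnk2, another Wnk kinase, rose (4.46, SE 0.83, adjusted p = 0.0101 in limma, with 1.51% of all genes rising) and Slc12a2 fell (-3.33, SE 0.75, adjusted p = 0.0268, with 1.49% falling). Wnk2 had 0.346 and 0.517 TPM in 8-cell and 13.7 and 66.1 TPM in blastocyst, and Slc12a2 had 48.5 and 25.4 and then 4.77 and 1.23 TPM. Neither was called without either 8-cell library or without blastocyst replicate 2, and Slc12a2 was also not called without a 1-cell or a 4-cell library. limma called 0 list genes from oocyte to 1-cell (0.38% of all genes were called in either direction) and 0 from 4-cell to 8-cell (1.67%). At an unadjusted p under 0.05 there were 1, 0 and 1 genes from oocyte to 1-cell and 0, 2 and 1 from 4-cell to 8-cell in the 3 lists. Without either 2-cell library, falls were called among the list genes in both of these steps, and more genes were called over all.

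**Figure D5:**
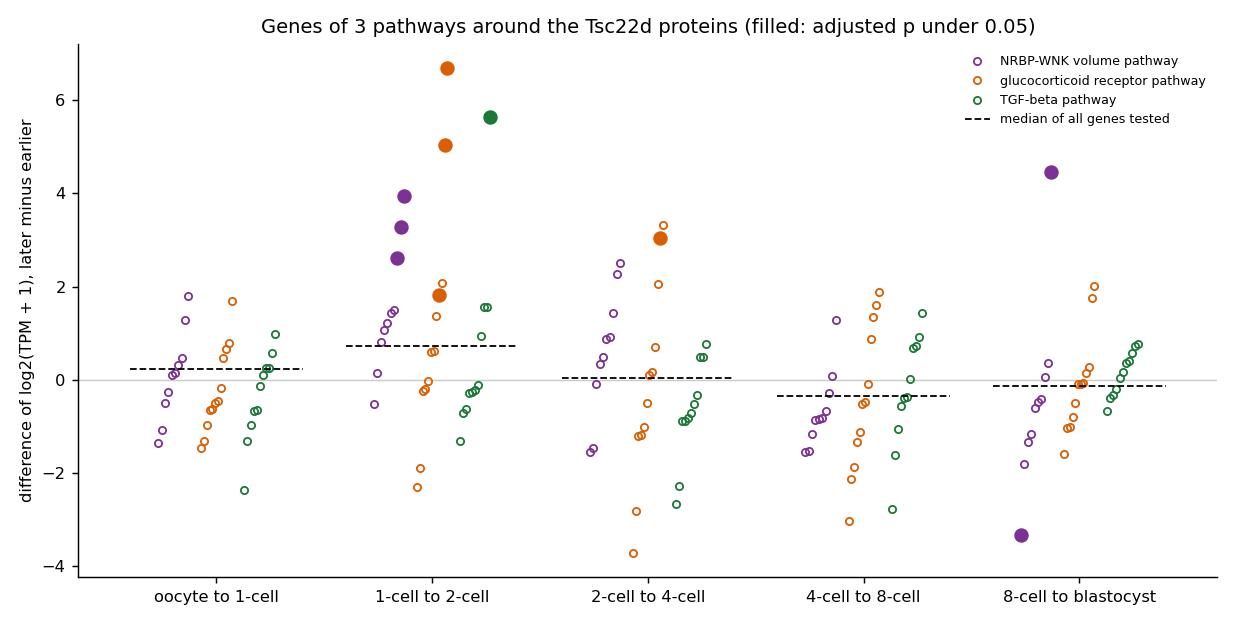
Difference of log2(TPM + 1), later minus earlier stage, for each tested gene of the 3 pathway lists, with filled points for an adjusted p under 0.05 and dashed lines at the median of all genes tested. The 7 filled points from 1-cell to 2-cell lie above the median of 0.72, and none is filled from oocyte to 1-cell or from 4-cell to 8-cell.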

How the data were processed

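Amplified cDNA of sperm, oocytes and embryos was analysed in 14 short-read libraries and 7 long-read pools. For the long reads, GMAP alignment on mm10, cDNA_Cupcake collapsing and filtering of each stage, and a Cuffmerge step across stages were run by the authors, who deposited exon coordinates. For the short reads they deposited 2 sets of salmon TPM, over the merged set and over the transcripts of the stage itself. The depth of a library cannot be read from TPM. The paper lists the total sequences of each short-read library, and these differ between the replicates of a stage. They were not used here, so the part of depth in the spread between replicates was not tested. No count test was run. Some bases are shared by several transcripts, and salmon divides their reads by a model.

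Samples were grouped by title, which for 8-cell numbers the replicates the other way from the file names. Transcripts were given to the GENCODE vM21 gene (GRCm38, the assembly of mm10) with the most exon overlap on the same strand. The methods name vM20. Between 5.55% and 35.0% of the TPM of a library fell on transcripts with no gene. A first exon is defined by its splice donor. The members and the gene lists were chosen with earlier results of these data known. No test was made on the members. List genes were tested with limma 3.58.1 (lmFit, contrasts.fit and eBayes with a mean-variance trend, in R 4.3.3). The response was log2(TPM + 1) in the 12 oocyte and embryo libraries, with the stage as the only term, only genes reaching 1 TPM in 2 or more libraries, and Benjamini-Hochberg adjustment for each step, called at an adjusted p under 0.05. Fold changes on this scale understate the change of low genes. With 2 libraries a stage and no word on separate animals, p-values measure only the spread between these samples.

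Named genes are the 4 members, each first exon with at least 10% of its gene in a library, the called list genes, Nrbp1, Wnk1, Nr3c1 and Tgfbr1, and for each member the 3 genes most like it with a stage mean of at least 10 TPM. Alternatives were a pseudocount of 0.1, other filters, quantile normalization, fits limited to the 4 libraries of 1 step, a replicate block, weights by stage, other definitions of a first exon, and each library left out. Python 3.11.15 was used for tables and figures. The limma fit was tested on simulated data.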

Additional observations from a re-analysis of the deposited data

How the results depend on the processing

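The levels of the 4 genes between their highest and lowest stage kept their direction under every alternative that gave a value. These differences moved by less than the spread between replicates. With 2 libraries a stage, leaving 1 out cannot move a difference beyond that spread. The stages were picked as highest and lowest from these same values, and their libraries did not overlap, so leaving 1 out cannot turn the direction either. Neither result is therefore read as support. Without 1 library, the log2 difference ran from 5.08 to 5.65 for Tsc22d1, 4.25 to 4.81 for Tsc22d2, 4.87 to 5.31 for Tsc22d3 and 2.11 to 2.90 for Tsc22d4. The share of the leading first exon changed from oocyte to blastocyst by -75.7 points in Tsc22d1, 81.7 in Tsc22d3 and 34.9 in Tsc22d4. Without 1 library these ran from -90.3 to -61.2, from 63.4 to 100 and from 26.3 to 43.5, and the Tsc22d2 share was constant at a change of 0. The Tsc22d3 change rests on low gene levels, 0.814 and 0.334 TPM in oocyte and 1.59 and 2.25 TPM in blastocyst. In Tsc22d4 the unspliced piece held 89.7% and 93.8% of the oocyte sum. Over the transcripts of the own stage the change was -53.3 in Tsc22d1, where the oocyte share was 53.3% in place of 77.4%, and 0 in Tsc22d4. The Tsc22d1 blastocyst share and both Tsc22d4 shares are 0 because no such transcript was offered, and the cause of the lower oocyte share was not tested. With the upstream pair of Tsc22d1 summed, an alternative chosen after seeing the data, it was -76.4. The Tsc22d3 and Tsc22d4 leading first exons are unannotated, so that a restriction to annotated donors gave no value for them, and the own-stage transcripts gave none for Tsc22d3, for the Tsc22d2 share or for its difference between 4-cell and blastocyst, since the blastocyst pool held no Tsc22d2 transcript.

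List calls from 2-cell to 4-cell, 1 as reported, were 0 with a pseudocount of 0.1. They were 2 with a filter at 5 TPM, beside 370 of 9146 over all genes. After quantile normalization they were 8 of 33 tested, beside 1076 of 10000 over all genes. They were 0 in the fit on 4 libraries, with weights by stage and with the replicate block. From 4-cell to 8-cell, 0 as reported, they were 1 with the pseudocount of 0.1, beside 225 of 10000 over all genes. They were 16 of 32 tested in the fit on 4 libraries and 17 of 33 with weights by stage. There 3482 of 9176 and 3921 of 10000 genes were called over all. In these 2 settings the spread of the noisier stages does not enter or enters less. Without 1 library the counts ran from 0 to 1 from oocyte to 1-cell, 5 to 13 from 1-cell to 2-cell, 0 to 7 from 2-cell to 4-cell, 0 to 2 from 4-cell to 8-cell and 0 to 2 from 8-cell to blastocyst. The replicate numbers did not pair the libraries (5 of 15 pairs of stages over 0.1, r from -0.55 to 0.48), and with the block the calls were 0, 6, 0, 0 and 2. Over all genes the calls were 38, 3227, 340, 167 and 300 in the 5 steps, and ran over the other settings from 1 to 98, 1531 to 3348, 0 to 1076, 89 to 3921 and 226 to 555, and without 1 library from 0 to 224, 1677 to 3809, 0 to 1714, 0 to 886 and 24 to 801. Of the calls, 86.8%, 80.8%, 46.5%, 46.1% and 50.3% rose, and after quantile normalization 55.6%, 47.5%, 56.7%, 69.3% and 59.9%. The depth cannot be weighed from TPM.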
